A study of Rattus norvegicus with 12 samples.

Results

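The Nr4a genes code for orphan nuclear receptors, and all probe sets that the platform annotation pairs with Nr4a1, Nr4a2 or Nr4a3 as their only gene symbol were taken. They are 3 of the 14217 genes named on the array and 6 of its 31042 probe sets, with 1 for Nr4a1 (1386935_at), 2 for Nr4a2 (1369007_at and 1387410_at) and 3 for Nr4a3 (1369067_at, 1393389_at and 1369217_at). Within a gene they are numbered here from the brightest to the dimmest by their mean over all animals. Forebrain RNA came from 12 male Long Evans rats, 6 weeks old and kept 1 to a cage, and each animal was measured on 1 Affymetrix array. The control group was 6 rats that stayed in a standard laboratory cage, and the exposed group was 6 rats that spent 3 hours in surroundings new to them, among objects of varied colour and shape. No genotype or drug separates the groups, and the labels describe the aim as a search for genes that go up after the exposure. In pieces of tissue this size, more cells with a transcript and more transcript per cell cannot be told apart.

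Nr4a receptors are transcription factors that work without a known hormone in the usual sense, since in the structures solved for them bulky side chains fill the ligand pocket, so the amount of protein made is a main control on their activity. Nr4a1 (Nur77), Nr4a2 (Nurr1) and Nr4a3 (Nor1) bind the same short DNA element, the NBRE, as monomers, and Nr4a1 and Nr4a2 can also pair with retinoid X receptors. They are immediate early genes: calcium and cyclic AMP signals in a firing neuron switch them on through CREB and its CRTC coactivators and through MEF2 and SRF. In the hippocampus they are known for a role in the storage of long-term memory, and Nr4a2 is also needed for the identity of midbrain dopamine neurons.

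The promoter windows that RefSeq (build GRCr8) gives for the members are shown because the cyclic AMP response element, through which CREB acts, can be looked for in them. The table holds windows for Nr4a1 and Nr4a2. Each covers 250 bases before and 50 after an annotated start, written from 5′ to 3′ along the gene, and in both genes that start lies inside the span of the gene, whose annotation reaches further upstream. The Nr4a1 window is chr7:134259888-134260187 on the plus strand and the Nr4a2 window is chr3:62104838-62105137 on the minus strand. Capitals mark every match to TGACG, the core of that element, read on both strands (CGTCA is the same core on the other strand).
Nr4a1: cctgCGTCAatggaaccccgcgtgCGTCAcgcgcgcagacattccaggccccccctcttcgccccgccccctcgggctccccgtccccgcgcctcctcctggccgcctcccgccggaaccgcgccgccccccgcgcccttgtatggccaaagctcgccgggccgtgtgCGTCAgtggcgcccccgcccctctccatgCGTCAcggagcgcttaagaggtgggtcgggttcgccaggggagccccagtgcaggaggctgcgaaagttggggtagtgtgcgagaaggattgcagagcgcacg
Nr4a2: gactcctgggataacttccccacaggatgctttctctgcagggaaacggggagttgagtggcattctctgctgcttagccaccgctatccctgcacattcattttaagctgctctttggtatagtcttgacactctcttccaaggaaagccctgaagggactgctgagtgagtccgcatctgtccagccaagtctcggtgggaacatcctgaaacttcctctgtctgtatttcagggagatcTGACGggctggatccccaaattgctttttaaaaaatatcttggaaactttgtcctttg
The Nr4a1 window holds 4 matches, which begin 246, 226, 82 and 53 bases before the start, and the Nr4a2 window holds 1, which begins 8 bases before it. Of 33469 windows of the same length in that table, 21.2% hold at least 1 match to TGACG and 0.236% hold 4 or more. All 4 matches of Nr4a1 lie inside the longer string TGCGTCA, which was picked after the window had been read and is found at least once in 1.90% of windows. Bases G and C make up 72.3% of the Nr4a1 window and 48.7% of the Nr4a2 window, against a median of 51.7% over all windows. The full palindrome TGACGTCA (in 1.83% of windows), the NBRE letters AAAGGTCA (1.43%) and the CArG box bound by SRF (1.64%), each read on both strands, have no match in either window. A match is a string of letters and not evidence of binding.

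The 12 arrays had median intensities from 235 to 245, and the median correlation of an array with the others of its group was 0.993 to 0.997 over all probe sets, lowest in exposed animals 3 and 5. An alternative fit left out these 2 and control 4. Control 4 was not low by this measure (0.996), and it was the control animal with the most Nr4a1 (1090). The changes were then 1.81 for Nr4a1, 0.55 for the first probe set of Nr4a2 and 1.32 for the first of Nr4a3. Each was still past the limit of the test described next. The RNA quality value of the arrays was 0.39 ± 0.05 in control and 0.45 ± 0.07 in exposed animals (SD, n = 6 each, exact two-sided permutation p = 0.0823).

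Transcripts of all 3 Nr4a genes were more abundant in the forebrain of exposed rats. Nr4a1 rose most (3.34-fold), Nr4a3 came next (2.50-fold at its brightest probe set) and Nr4a2 rose least (1.50-fold). Of the 6 probe sets 5 rose and 0 fell in limma, a linear model test for arrays, with 0.05 as the limit for the Benjamini-Hochberg adjusted p, while 1.97% of all 31042 probe sets passed as higher and 0.599% as lower. In these 5 probe sets all 6 exposed animals lay above every control animal, a pattern seen in 1.94% of all probe sets. The third probe set of Nr4a3 did not pass. Values below are the deposited intensities in arbitrary linear units, means are given with the SD over 6 animals, and changes are exposed minus control on the log2 scale, each with its limma standard error.

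Nr4a1, the receptor first found as a gene induced by nerve growth factor, gave intensities of 666, 772, 708, 1090, 785 and 908 in control animals 1 to 6. In exposed animals 1 to 6 it gave 3448, 2366, 2790, 2583, 2734 and 2421. The groups were far apart, with 2366 in the lowest exposed animal (number 2) and 1090 in the highest control animal (number 4). The mean went from 821 ± 155 (SD, n = 6) to 2724 ± 392 (SD, n = 6), a change of 1.74 ± 0.13 (limma adjusted p = 4.18e-05), and only 8 probe sets of the array changed upward by more, this one having rank 9. In control animals the coefficient of variation was 18.9% for Nr4a1, and 12.02% without control 4, a setting chosen after the values were seen. It was 8.72% for the first probe set of Nr4a2 and 6.08% for that of Nr4a3, and the differences in spread were not tested.

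Nr4a3, which overlaps with Nr4a1 in function in blood cells, gave 968, 927, 968, 852, 854 and 867 at its first probe set in control animals 1 to 6. In exposed animals 1 to 6 this probe set gave 2299, 2057, 2104, 2440, 2293 and 2387. The animals of each group were close together and the groups did not overlap. The mean went from 906 ± 55.0 to 2263 ± 153 (SD, n = 6 each), a change of 1.32 ± 0.05, and the adjusted p of 2.87e-07 in limma was the smallest among the members.

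The second Nr4a3 probe set gave 464, 515, 514, 403, 418 and 422 in control animals and 1062, 930, 1008, 1183, 1156 and 1171 in exposed animals, in the order of their numbers. Its change was 1.25 ± 0.08 (2.38-fold, limma adjusted p = 2.55e-05), so it moved much as the first one did. The third Nr4a3 probe set was dim, brighter than 41.8% of all probe sets (86.4% for the first), and read 146, 149, 141, 170, 137 and 136 in control animals. In exposed animals it read 210, 172, 242, 151, 175 and 152, so that 4 of 6 lay above every control animal and exposed animals 4 and 6 did not. Its change of 0.31 ± 0.12 did not pass in limma (adjusted p = 0.252).

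Nr4a2, the receptor of dopamine neurons that cortex and hippocampus also make on stimulation, gave 601, 580, 517, 541, 507 and 476 at its first probe set in control animals. In exposed animals it gave 844, 732, 779, 805, 930 and 755. The groups did not overlap, but the gap between the highest control (601) and the lowest exposed animal (732) was narrow beside that of Nr4a1. The mean went from 537 ± 46.8 to 808 ± 71.7 (SD, n = 6 each), a change of 0.59 ± 0.07 (limma adjusted p = 0.00113).

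The second Nr4a2 probe set gave 450, 445, 406, 375, 365 and 400 in control animals and 647, 584, 538, 675, 618 and 568 in exposed animals. Its change was 0.57 ± 0.07 (1.49-fold, limma adjusted p = 0.00124), and again every exposed animal was above every control. By size of change over the whole array the Nr4a2 probe sets had ranks 95 and 104, while those of Nr4a3 had ranks 11, 16 and 409.

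**Figure D1:**
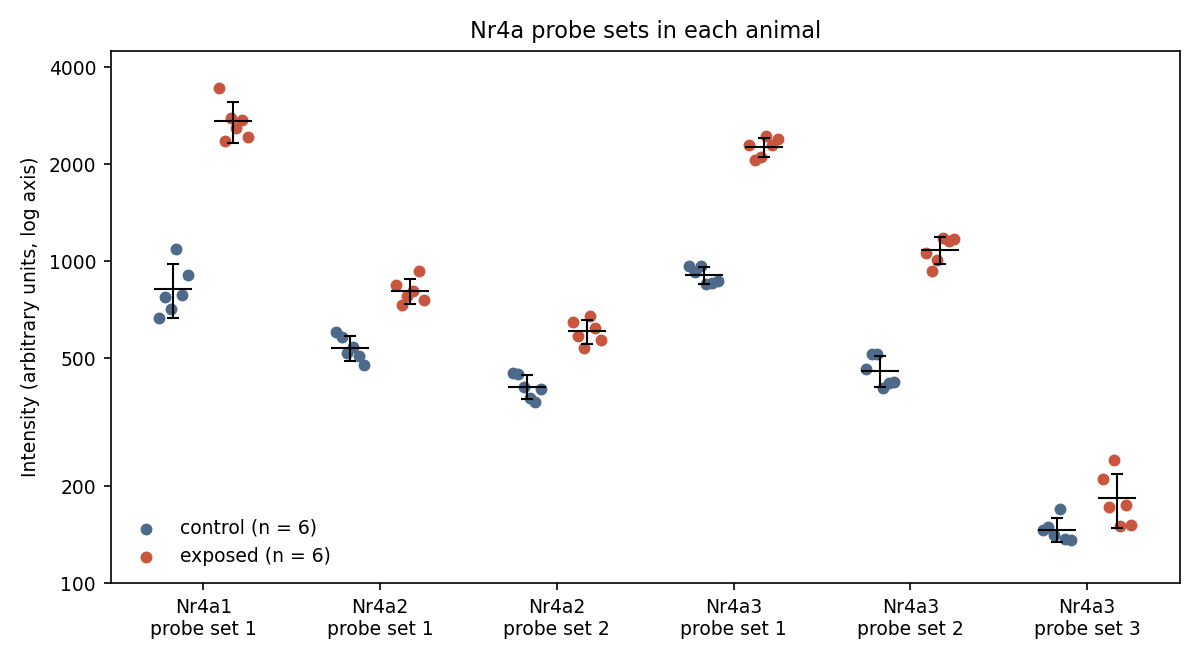
Intensity of each Nr4a probe set (log axis, arbitrary units) in 6 control (blue) and 6 exposed (red) animals, drawn from left to right in the order of their numbers; black bars show the mean and SD. The groups are apart for Nr4a1, for both Nr4a2 probe sets and for the first 2 Nr4a3 probe sets, and overlap for the third Nr4a3 probe set, where exposed animals reach from 151 to 242.

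A test that assumes no distribution, the exact two-sided permutation test over all 924 assignments of 6 of the 12 animals, gave p = 0.00216 for each of the 5 probe sets that passed in limma, the smallest it can give. For the third Nr4a3 probe set it gave an exact permutation p of 0.0173, unadjusted. Its unadjusted p in limma was 0.0226. Over the array 4094 probe sets had an unadjusted p under 0.05 in limma, so that limma p alone does not set the probe set apart. How many probe sets had so small a permutation p was not counted. RNA quality was read from the array's own Gapdh and beta-actin control probe sets as 3 prime minus 5 prime log2 signal. This value was highest in exposed animal 3 (0.59), which also gave the highest reading of the third Nr4a3 probe set. Exposed animal 1, with the next highest reading (210), had a value of 0.42. The part of RNA quality in these readings was not tested. With that RNA quality value as a covariate the change of this probe set was 0.19 ± 0.11 (limma adjusted p = 0.658), and the changes of the 5 others ran from 0.57 for Nr4a2 to 1.80 for Nr4a1, all still passing.

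The members differed in how far they rose. The per-animal log2 difference between the brightest probe sets of 2 genes was compared between the groups by the exact two-sided permutation test, with p adjusted over the 3 pairs. Nr4a1 rose more than Nr4a2 by 1.15 on the log2 scale (SD 0.33 in control and 0.17 in exposed animals, adjusted exact p = 0.00325), and the difference was above every control in 6 of 6 exposed animals. Nr4a3 rose more than Nr4a2 by 0.73 (SD 0.11 and 0.13, adjusted exact p = 0.00325), also in 6 of 6 animals.

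The step from Nr4a3 to Nr4a1 was less firm. Nr4a1 rose more than Nr4a3 by 0.42 (SD 0.33 and 0.21, adjusted exact p = 0.0281), with 2 of 6 exposed animals above every control. When 1 animal was left out this call was lost in 5 of 12 cases, those without control 1, 2 or 3 or exposed animal 1 or 3 (adjusted exact p from 0.0541 to 0.0649, difference from 0.34 to 0.40). A change on an array depends on how each probe set responds to its transcript, and that response was not measured here.

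Probe sets of 1 gene were compared in the same way, in 3 pairs. The Nr4a2 probe sets differed in change by 0.02 (SD 0.10 in control and 0.13 in exposed animals, adjusted exact p = 0.794). The first and second Nr4a3 probe sets differed by 0.07 (SD 0.09 and 0.06, adjusted exact p = 0.256). The third Nr4a3 probe set changed by 1.01 less than the first (SD 0.16 and 0.33, adjusted exact p = 0.00649), in 6 of 6 animals. Which part of the transcript each probe set reads is not among the sources used here.

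Fos, a subunit of AP-1, and Egr1, a zinc finger factor, are the early genes most used to report neuronal activity, and each member was set against both at their brightest probe sets (Fos 296 ± 72.3 to 1979 ± 220, Egr1 3794 ± 170 to 9150 ± 390, SD, n = 6 each), with p adjusted over these 6 pairs. All 3 members rose less than Fos, Nr4a1 by 1.04, Nr4a3 by 1.45 and Nr4a2 by 2.19 on the log2 scale (adjusted exact p = 0.00325 for each, 6 of 6 animals beyond every control). A dimmer probe set of Fos changed by -0.03 and did not pass. Against Egr1 the members lay on both sides. Nr4a1 rose more than Egr1 by 0.47 (SD 0.27 and 0.18, adjusted exact p = 0.00779, 4 of 6 animals above every control). Nr4a2 rose less than Egr1 by 0.68 (SD 0.11 and 0.09, adjusted exact p = 0.00325, 6 of 6). The change of Nr4a3 differed from that of Egr1 by 0.05 (SD 0.10 and 0.11, adjusted exact p = 0.411), a difference smaller than the spread between animals.

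**Figure D2:**
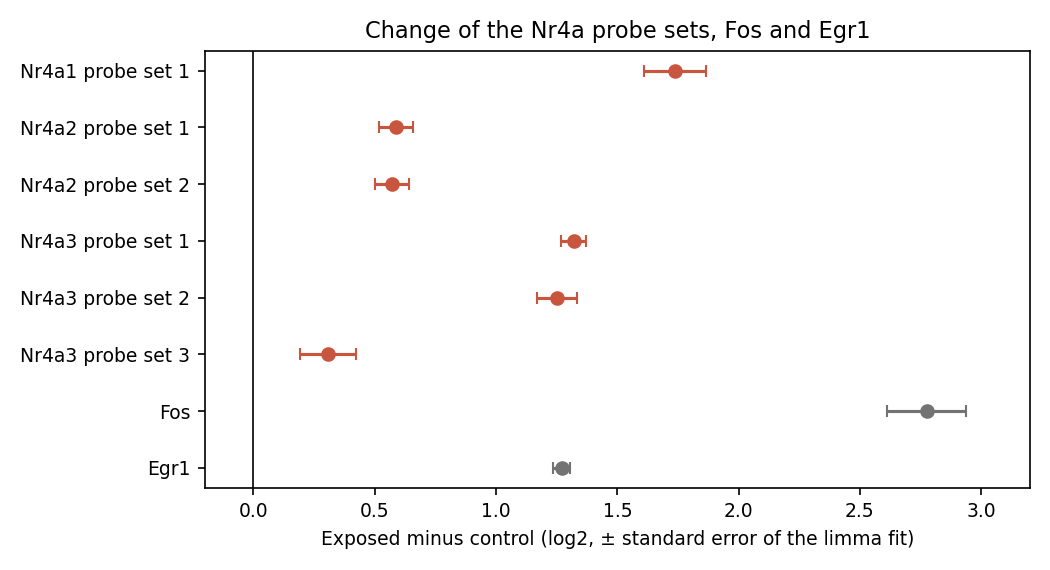
Change of each Nr4a probe set (red) and of the brightest probe sets of Fos and Egr1 (grey), as exposed minus control on the log2 scale; bars are limma standard errors with 6 animals per group. The first 2 probe sets of Nr4a3 lie beside Egr1 near 1.3, those of Nr4a2 lie near 0.6, Nr4a1 is at 1.74, and Fos is farthest right at 2.77.

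Within a group the members showed no shared order of animals that passed a test. Over the 6 control animals Nr4a1 and Nr4a3 ran in opposite directions (Pearson r = -0.81, exact permutation p = 0.0472; Spearman rho = -0.89, exact permutation p = 0.0333), control 4 being highest for Nr4a1 and lowest for Nr4a3. Without the 2 animals farthest from the median of Nr4a1, r was -0.74. After adjustment over the 6 relations computed, the exact permutation p was 0.283 for r and 0.200 for rho. Over the 6 exposed animals the same pair gave r = 0.11 (exact permutation p = 0.854) and rho = 0.09 (exact permutation p = 0.919). There r turned to -0.76 without the 2 animals farthest from the median of Nr4a1, so its sign rests on them. Likewise r of Nr4a3 with Nr4a2 in exposed animals went from 0.36 to -0.73 without 2 animals. The 4 relations other than those of Nr4a1 with Nr4a3 had r from -0.38 to 0.56, and their adjusted exact p for r was 0.544 or more.

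The labels number the animals from 1 to 6 in each group, with no statement of what a number means. Among animals numbered 1 to 3 the change of Nr4a1 was 1.99, and among those numbered 4 to 6 it was 1.49. The first probe set of Nr4a3 changed by 1.17 and 1.47 in these sets, and that of Nr4a2 by 0.47 and 0.70. The second probe sets of Nr4a3 (1.01 and 1.50) and Nr4a2 (0.44 and 0.70) were also further up in the higher numbers, while the third probe set of Nr4a3, which did not pass, changed by 0.50 and 0.11. The difference between the sets was not tested.

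The genes whose pattern was most like that of each member were found by the root mean square difference in log2 value over the 12 animals, each gene taken relative to its own control mean, among 9144 genes brighter than the median probe set. Nearest to Nr4a1 was Inhba, which codes for an activin subunit (difference 0.333), followed by Nr4a3 itself (0.390) and Egr1 (0.391). Other pairs of members were further apart in rank. Nr4a1 had rank 18 for Nr4a3, and Nr4a2 had rank 41 for Nr4a1 and 38 for Nr4a3. For Nr4a2, Nr4a3 had rank 8440 and Nr4a1 rank 9131. A dimmer probe set of Inhba changed by 0.40 and did not pass (limma adjusted p = 0.0834). Nearest to Nr4a3 were Egr4, a zinc finger factor of the Egr family (0.0817), Egr1 (0.0993) and Ptgs2, the inducible cyclooxygenase (0.109). A dimmer probe set of Egr4 changed by 0.19 and did not pass (limma adjusted p = 0.561).

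Nearest to Nr4a2 were Nab2, a corepressor of Egr proteins (0.105), Dnajb5, an Hsp40 cochaperone (0.113), and Zdbf2, an imprinted gene (0.119). Intensity of Nab2 went from 807 ± 42.3 to 1175 ± 89.2, that of Dnajb5 from 1285 ± 44.2 to 1954 ± 155, and that of Zdbf2 from 1195 ± 102 to 1817 ± 86.2 (SD, n = 6 each). Their folds were 1.45, 1.52 and 1.52 (limma adjusted p = 0.000301, 0.000104 and 0.000195). This measure reflects mainly the size of the change, which was already compared among the members.

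None of the other nuclear receptors measured passed at its brightest probe set, the only one counted here. Of 39 measured members of the superfamily outside the Nr4a group, 0 rose and 0 fell in limma, and 6 had an unadjusted p under 0.05. Among all 14217 named genes, each at its brightest probe set, 2.62% passed as higher and 0.844% as lower, so a count of 0 among 39 is near that background. Their log2 changes ran from -0.15 for Nr1d1, a repressor of the clock, to 0.14 for Ppard, a fatty acid sensor, with a median of 0.00, which is also the median of all named genes. Of the 39 genes 6 were at the lower limit of the scale on all arrays.

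The receptors with the smallest p were Esrra, the estrogen-related receptor alpha of mitochondrial gene control (777 ± 8.96 to 825 ± 28.4, change 0.09, limma adjusted p = 0.0665), Nr3c2, the mineralocorticoid receptor (683 ± 20.1 to 646 ± 23.5, change -0.08, limma adjusted p = 0.191), and Nr1d2, a further clock repressor (2762 ± 112 to 2515 ± 206, change -0.14, limma adjusted p = 0.245). Esrra passed without exposed animal 6 (limma adjusted p = 0.00814) and with array weights (limma adjusted p = 0.0305), and Nr1d2 passed as lower with the number sets 1 to 3 and 4 to 6 as a term (limma adjusted p = 0.0454). Retinoid X receptors, the partners of Nr4a1 and Nr4a2, were close to level at their brightest probe sets. The changes were 0.06 for Rxra, -0.01 for Rxrb and 0.03 for Rxrg, and none of these 3 passed (limma adjusted p = 0.537 or more).

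**Figure D3:**
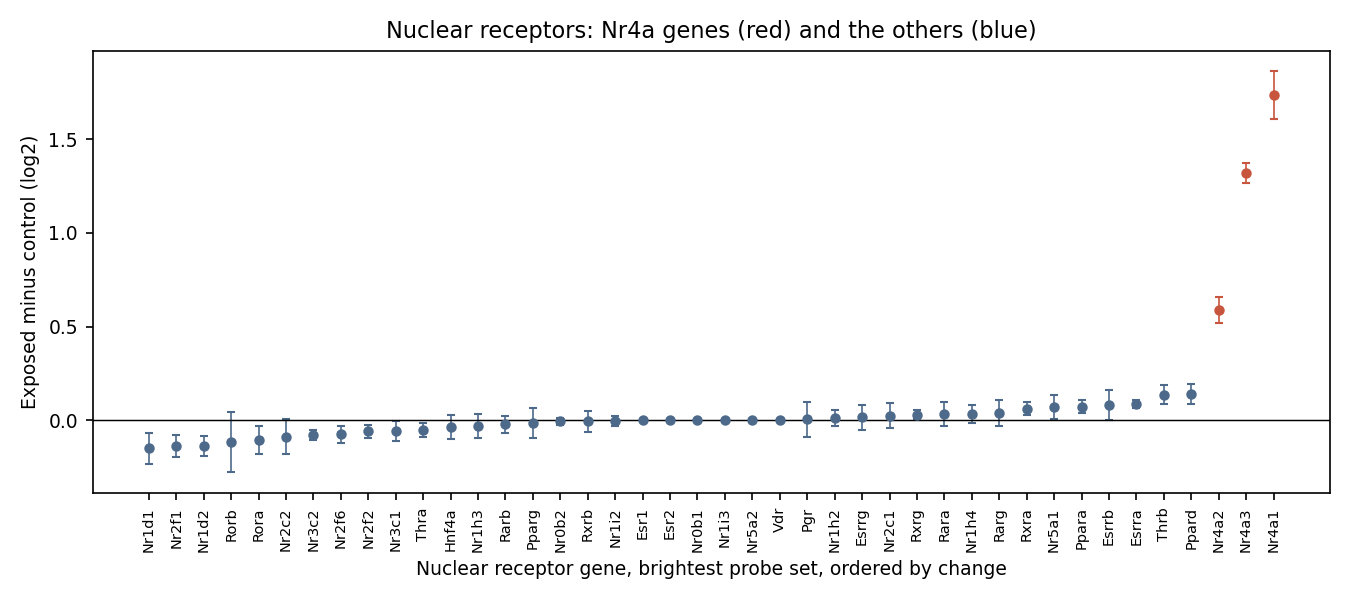
Change of 42 nuclear receptor genes at their brightest probe set, as exposed minus control on the log2 scale, ordered by change, with limma standard errors. The 3 Nr4a genes (red) lie between 0.59 and 1.74, and the 39 others (blue) between -0.15 and 0.14.

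Of the genes that drive Nr4a transcription in stimulated neurons (CREB and CRTC family members, MEF2 factors, SRF, Elk and NFAT factors and their kinases), 2 of 26 rose and 0 fell in limma, where 2.62% of all named genes passed as higher and 0.844% as lower. Crem, which codes for CREB-like activators and for the repressor ICER, went from 766 ± 121 to 1396 ± 182 (1.83-fold, limma adjusted p = 0.00191). Its dimmer probe sets changed by 0.46, 0.88, 1.21, 0.26 and 0.05. Only the last did not pass (limma adjusted p = 0.638). Its means of 36.0 and 49.9 lay under 53.8, to which lower values were set before the log2 step. Its change of 0.05 is therefore not that of these means. Srf, the serum response factor, went from 1293 ± 54.9 to 1574 ± 75.5 (1.22-fold, limma adjusted p = 0.00191), while its dimmer probe sets changed by 0.15 and 0.21 and did not pass (limma adjusted p = 0.138 and 0.340). At the brightest probe sets of both genes all 6 exposed animals were above every control. Mef2d, a calcium-regulated factor with the third smallest p, changed by 0.08 (limma adjusted p = 0.357). The median of the list was 0.01. Earlier results of these data were known when it was drawn up, so 2 of 26 is a description.

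Of the corepressors and coactivators described for Nr4a proteins, 1 of 18 rose and 0 fell, with a median change of 0.01. This count is near the background of 2.62% higher and 0.844% lower and is no result about the list. The gene that passed was Sfpq, a splicing and transcription factor, which went from 981 ± 49.8 to 1150 ± 83.9 (1.17-fold, limma adjusted p = 0.0443). Leaving out any 1 animal other than exposed animal 3 ended its call (11 of 12 fits, limma adjusted p from 0.0514 to 0.104). The histone deacetylases Hdac5 and Hdac1 changed by 0.11 and -0.22 and did not pass (limma adjusted p = 0.361 and 0.384).

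Of the endoplasmic reticulum chaperones and related genes described as Nr4a targets in hippocampus, 6 of 14 rose and 0 fell, beside 2.62% and 0.844% of all named genes, with a median change of 0.19. The list was drawn up with earlier results of these data known, so its count is a description. Hspa5, the main chaperone of that compartment, went from 4115 ± 337 to 5727 ± 294 (1.39-fold, limma adjusted p = 0.00101). Xbp1, a factor of the unfolded protein response, went from 3426 ± 151 to 4497 ± 324 (1.31-fold, limma adjusted p = 0.00126), and Creld2, a stress-induced protein of that compartment, from 499 ± 29.0 to 663 ± 43.4 (1.33-fold, limma adjusted p = 0.00151). In each all 6 exposed animals were above every control. These genes are known to be induced by other routes too, and no measurement here ties them to the members.

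Among other genes described as Nr4a targets, 5 of 17 rose and 0 fell, beside 2.62% and 0.844% of all named genes, with a median change of 0.05. This list too was drawn up with earlier results known, so its count is a description. No measurement here ties these genes to the members. Gadd45b, a stress gene linked to DNA demethylation, went from 266 ± 27.7 to 601 ± 54.6 (2.26-fold, limma adjusted p = 2.72e-05). Fosl2, an AP-1 subunit, went from 81.3 ± 8.96 to 182 ± 26.7 (2.22-fold, limma adjusted p = 0.000201). This dim probe set lost its call with the lower limit of the scale raised to the 40th percentile (change 0.29, limma adjusted p = 0.120). The other Fosl2 probe set went from 89.7 ± 8.45 to 153 ± 11.5 and also passed in the main fit (1.71-fold, limma adjusted p = 0.000132). Pfkfb3, a regulator of glycolysis, went from 320 ± 17.3 to 442 ± 35.6 (1.38-fold, limma adjusted p = 0.00128), while its dimmer probe sets changed by 0.01 and 0.14 and did not pass. Bdnf and Cdkn1a were the other 2 that rose.

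Of the genes listed around Nr4a2 and midbrain dopamine neurons, 0 of 11 rose and 0 fell in limma, and 1 had an unadjusted p under 0.05. Which of them depend on Nr4a2 was not tested. A count of 0 among 11 is near the background of 2.62% higher and 0.844% lower. The median change was 0.14. Nrp1, a receptor of axon guidance, changed by 0.18 (limma adjusted p = 0.288), and its dimmer probe set, with a change of 0.34, did pass (limma adjusted p = 0.00700). Ret, the receptor for the neurotrophic factor GDNF, changed by 0.17 and Aldh1a1, a retinoic acid enzyme, by 0.16 (limma adjusted p = 0.557 and 0.653).

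**Figure D4:**
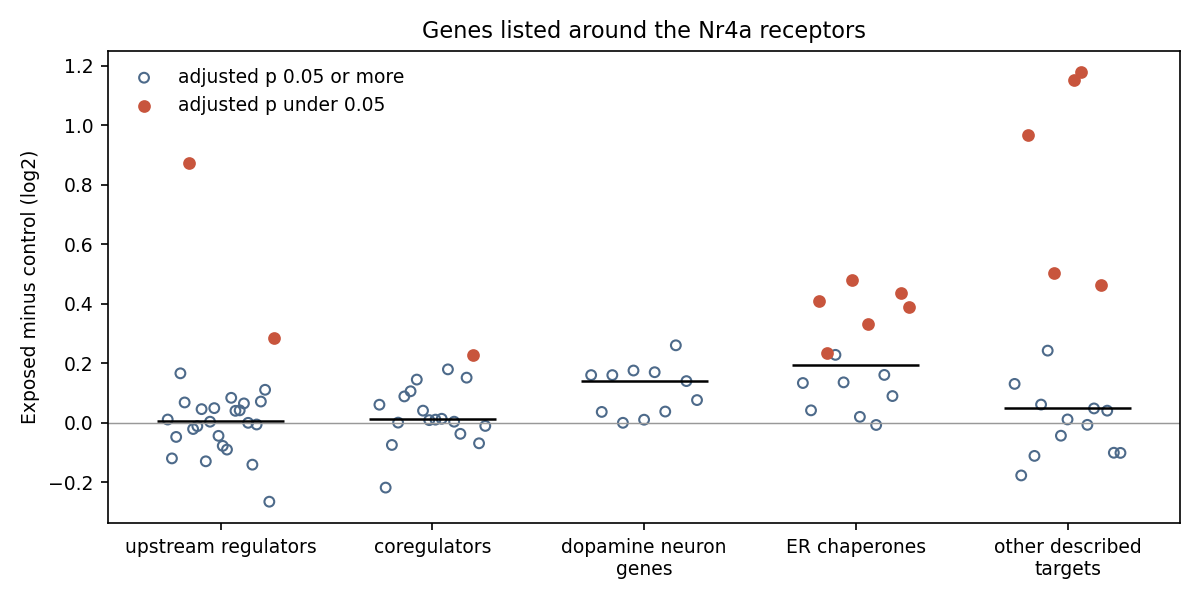
Change of each measured gene of 5 lists around the Nr4a receptors, as exposed minus control on the log2 scale; filled red points passed in limma, open points did not, and black lines are list medians. Chaperones (median 0.19) hold 6 genes that passed, the other described targets hold 5, the upstream regulators 2, the coregulators 1 and the dopamine neuron genes 0.

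Since Nr4a2 marks dopamine neurons, claustrum and deep cortex, and Nr4a1 is high in striatum, markers of these and other cell types were read beside the members. Markers of forebrain excitatory neurons (Slc17a7, from 5221 to 7258 over the animals) and of striatal neurons (Ppp1r1b, from 3331 to 4110) were present in every animal. Of 8 marker lists, 7 had 0 genes that passed in limma: striatum (12 genes, 4 with an unadjusted p under 0.05), cortex and hippocampus (10 genes, 3), claustrum and deep cortex (8 genes, 2), midbrain dopamine neurons (7 genes, 0), astrocytes (8 genes, 0), oligodendrocytes (7 genes, 1) and microglia and blood (11 genes, 0). At 2.62% higher and 0.844% lower over all named genes, 0 calls in lists of this size is near the background. Striatum and claustrum and deep cortex each held 1 call in 3 of 25 alternatives, and cortex and hippocampus in 1 of 25. The median changes of the 7 lists ran from -0.04 to 0.04. Of 10 endothelial and mural genes 1 fell, the organic anion transporter gene Slco1a4 (change -0.29, limma adjusted p = 0.00364), and the list median was -0.06.

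Midbrain dopamine markers, taken as a mean, spanned a wider range in control than in exposed animals, a difference in spread that was not tested. The SD of Slc6a3 was 78.2 in control and 25.3 in exposed animals, and that of Th was 139 and 34.8. It was also smaller in exposed animals for Slc18a2 (20.2 and 9.67), Ddc (48.9 and 42.9) and Aldh1a1 (104 and 93.8). It was larger for Pitx3 (2.02 and 5.58) and Foxa2 (3.52 and 3.94). The group means of Pitx3 (51.4 and 49.4) and Foxa2 (29.9 and 32.2) lay under the lower limit of the scale. Th, the rate-limiting enzyme of dopamine synthesis, read 388, 334, 382, 640, 235 and 303 in control animals and 375, 461, 397, 419, 369 and 381 in exposed animals. Control 4 was highest and control 5 lowest, and the exposed animals lay between them. The summed level of these markers, as the mean log2 over the 7 genes, ran from 7.43 to 7.98 in control and from 7.75 to 7.90 in exposed animals, and their part in the change of Nr4a2 was not tested. Control 4 was also the control animal with the most Nr4a1, and the part of these markers in the level of Nr4a1 was not tested.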

How the data were processed

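The values are intensities on a linear scale, 1 per probe set and array, from the authors' deposited table. Total RNA was taken up in Trizol, cleaned on RNeasy columns and turned into biotin-labelled cRNA, per the labels' protocols. Background correction, probe summary and normalization are not given in the sources used here. Values under 53.8, the 20th percentile over the table, were set to it before the log2 step, and the result was fitted with limma 3.58.1 in R 4.3.3 (group as the only term, eBayes with trend). Benjamini-Hochberg adjustment covered all 31042 probe sets, leaving out 57 array controls. Precision is limited by having 6 arrays in a group. The fit was tested on simulated data.

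Results per gene use the brightest probe set with 1 symbol in the platform annotation, and 190 of the 216 symbols in 14 gene lists were matched. Named were all member probe sets, the 3 genes most like each member, Fos and Egr1, and up to 3 genes with the smallest p of each list around the members. Slco1a4, Bdnf, Cdkn1a, Nr1d1, Ppard, the retinoid X receptors and the single marker genes fall outside this rule and were chosen after their values were seen. The members and lists were chosen with earlier results of these data known. Alternatives were other normalizations, floors, filters and variance models, covariates, the replicate number as a block, and leaving out animals.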

Additional observations from a re-analysis of the deposited data

Results flagged for a closer look

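None of the 6 Nr4a probe sets held an animal far from the rest of its group by Dixon's ratio, the gap to the nearest animal divided by the range of the group. Among 64 groups of 6 values checked for the named genes, 4 passed Dixon's critical value for that size, and chance passes about 1 in 20. Nab2, the nearest gene to Nr4a2, was highest in control 2 (891, the next at 803, ratio 0.761). Dnajb5 was lowest in control 5 (1197, the next at 1286, ratio 0.757). Egr4, the nearest gene to Nr4a3, was lowest in exposed animal 3 (1432, the next at 1666, ratio 0.638). Nrp1 was lowest in control 5 (486, the next at 595, ratio 0.744), the control animal with the lowest Th.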

How the results depend on the processing

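All 25 alternatives to the fit kept the direction and the side of the threshold of the 6 Nr4a probe sets (150 of 150 values). The change of Nr4a1 ran from 1.67 to 1.82, that of the first Nr4a3 probe set from 1.30 to 1.35 and that of the first Nr4a2 probe set from 0.55 to 0.62. With the replicate number as a block, which the labels do not describe as a pairing, the limma adjusted p was 0.0125 for Nr4a1, 0.0243 for Nr4a2 and 0.00279 for Nr4a3, and 435 probe sets passed, 359 higher and 76 lower, against 796 without it. With the block no Nr4a call changed. Same-numbered control and exposed animals had correlated deviations of -0.08 to 0.16, and 1 control animal of 6 correlated best with the exposed animal of its own number. The count of lower probe sets was 186, and it was 314 with array weights, 72 with the RNA quality covariate, 82 (of 510 in all) without control 4 and exposed animals 3 and 5, and 103 to 182 with 1 animal left out (103 without control 3, 112 without control 5, 117 without control 6, 104 without exposed animal 1). The cause was not tested. The difference between Nr4a1 and Nr4a3 ran from 0.34 to 0.52 with 1 animal left out and lost its call in 5 of 12 cases. The difference between the Nr4a2 probe sets changed sign, as a value near 0 can, from -0.0178 to 0.0498 with 1 animal left out and to -0.0298 without the 3 arrays.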
